A study of Mus musculus with 4 samples.

Results

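Cholesterol synthesis, uptake and efflux were followed through 34 genes of the 12799 in the deposited table. They were chosen by symbol as enzymes of the mevalonate and sterol pathways, regulators of the SREBP transcription factors, carriers of sterol, and genes of the LXR efflux system. All 34 were present, and all 34 reached at least 1 CPM, the library-scaled read unit of every level given here, in each library. The cells were bone marrow-derived monocytes of 12-week-old female mice, cultured for 3 days with M-CSF (30 ng/mL) together with RANKL (50 ng/mL), the cytokine pair that turns monocytes into bone-resorbing osteoclasts. Before that, marrow cells were held for 2 days in serum-containing medium and the non-adherent cells were kept. Knockout cells (n = 2) carried the genotype Csf1r-iCre;Piezo1fl/fl, in which a Cre recombinase driven by Csf1r regulatory sequence acts on loxP-flanked alleles of the stretch-gated channel gene Piezo1 in the monocyte lineage. Control cells (n = 2) carried Piezo1f/f, with no Cre in the label. Of all 11781 genes tested, Tdtomato, the name of a fluorescent reporter, had the largest positive log2 fold change, knockout minus control, at 7.56. The genotype labels name no reporter. An effect of Cre, one of a reporter and one of Piezo1 loss therefore cannot be told apart. The libraries are described as biological replicates, and the labels do not say how many mice gave each.

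Cholesterol is built from acetyl-CoA by way of mevalonate, farnesyl pyrophosphate and squalene, which is cyclised to lanosterol and then trimmed. When membranes of the endoplasmic reticulum are poor in sterol, SCAP escorts SREBP-2 to the Golgi for cleavage, and the released factor switches on the synthetic enzymes and its own brake, Insig1. When oxysterols accumulate, the LXR receptors switch on the exporters Abca1 and Abcg1 and the lipid acceptor Apoe. The usual picture is therefore of a pair of opposed programmes. In osteoclasts, the mevalonate pathway is also known as the target of nitrogen-containing bisphosphonates, which inhibit the enzyme encoded by Fdps.

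Promoter windows of 4 members from RefSeq (GRCm38.p6, 250 bases before to 50 after the annotated start) are shown to set the synthetic side (Hmgcs1, Cyp51, Insig1) beside the efflux side (Abca1). Capitals mark matches on either strand to the sterol regulatory element TCACNCCAC or to the CCAAT box, read as ATTGG on the other strand.
Hmgcs1 (chr13:119690101-119690400, plus strand): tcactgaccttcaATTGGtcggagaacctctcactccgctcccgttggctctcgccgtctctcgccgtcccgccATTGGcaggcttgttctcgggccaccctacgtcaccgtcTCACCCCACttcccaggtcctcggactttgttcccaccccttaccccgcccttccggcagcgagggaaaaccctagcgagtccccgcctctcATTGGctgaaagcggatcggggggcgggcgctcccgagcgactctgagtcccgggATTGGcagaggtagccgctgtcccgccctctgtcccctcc
Cyp51 (chr5:4104648-4104947, minus strand): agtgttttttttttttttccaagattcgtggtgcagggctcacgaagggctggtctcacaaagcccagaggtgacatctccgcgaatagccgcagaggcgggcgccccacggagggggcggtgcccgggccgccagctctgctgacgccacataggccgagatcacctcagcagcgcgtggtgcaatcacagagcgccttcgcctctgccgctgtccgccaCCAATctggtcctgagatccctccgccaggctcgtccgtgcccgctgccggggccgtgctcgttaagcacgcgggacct
Insig1 (chr5:28071162-28071461, plus strand): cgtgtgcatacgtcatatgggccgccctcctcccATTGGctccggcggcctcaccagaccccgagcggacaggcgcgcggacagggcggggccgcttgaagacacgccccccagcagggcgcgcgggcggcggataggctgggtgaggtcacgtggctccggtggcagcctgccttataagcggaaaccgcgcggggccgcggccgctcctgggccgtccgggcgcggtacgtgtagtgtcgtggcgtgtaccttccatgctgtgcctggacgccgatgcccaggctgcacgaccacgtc
Abca1 (chr4:53159846-53160145, minus strand): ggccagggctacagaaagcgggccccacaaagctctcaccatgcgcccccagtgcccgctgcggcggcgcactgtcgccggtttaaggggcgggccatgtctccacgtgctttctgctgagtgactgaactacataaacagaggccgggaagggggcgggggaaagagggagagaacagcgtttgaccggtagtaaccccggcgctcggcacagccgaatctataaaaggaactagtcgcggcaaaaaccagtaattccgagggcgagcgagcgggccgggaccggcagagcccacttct
The Hmgcs1 window held 1 sterol regulatory element, TCACCCCAC, from base −137 to −129 relative to the start, among 4 CCAAT boxes. The Cyp51 and Insig1 windows each held 1 CCAAT box and no match to the element, and the Abca1 window held neither.

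Of the 34 genes, 28 had a window in the RefSeq table, and of the LXR-driven genes 3 did (Abca1, Apoe and Mylip). Among the 17 SREBP2-driven genes with a window, 16 held a CCAAT box (CCAAT, both strands), against 6 of the 11 other members, Mylip among them, and 42.9% of the 9329 tested genes with a window of the same length. Of all 32851 windows in the table, 37.4% held it. The CCAAT box is the binding sequence of NF-Y, a factor known to work beside SREBPs. A GC box (GGGCGG, both strands), the letters bound by Sp1, was in 16 of the 17, in Abca1 and Mylip of the 3 LXR-driven genes, and in 69.8% of tested genes. An E-box (CACGTG, its own reverse complement) was in 4 of the 17, those of Dhcr7, Hsd17b7, Insig1 and Sc5d, in Abca1 of the 3 LXR-driven genes, and in 12.0% of tested genes. The strict sterol regulatory element was in the Hmgcs1 window alone of the 28 genes, and in 1.24% of all windows. The strict LXR element is 2 copies of AGGTCA in the same direction with any 4 bases between them. It was in 0 of the members' windows, in 0 of the 9329 tested genes with a window and in 0.0152% of all windows. Its absence therefore cannot set the members apart from other tested genes. The difference between the lists was not tested. A match describes letters only, and its absence says only that these letters are not in that window.

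**Figure D1:**
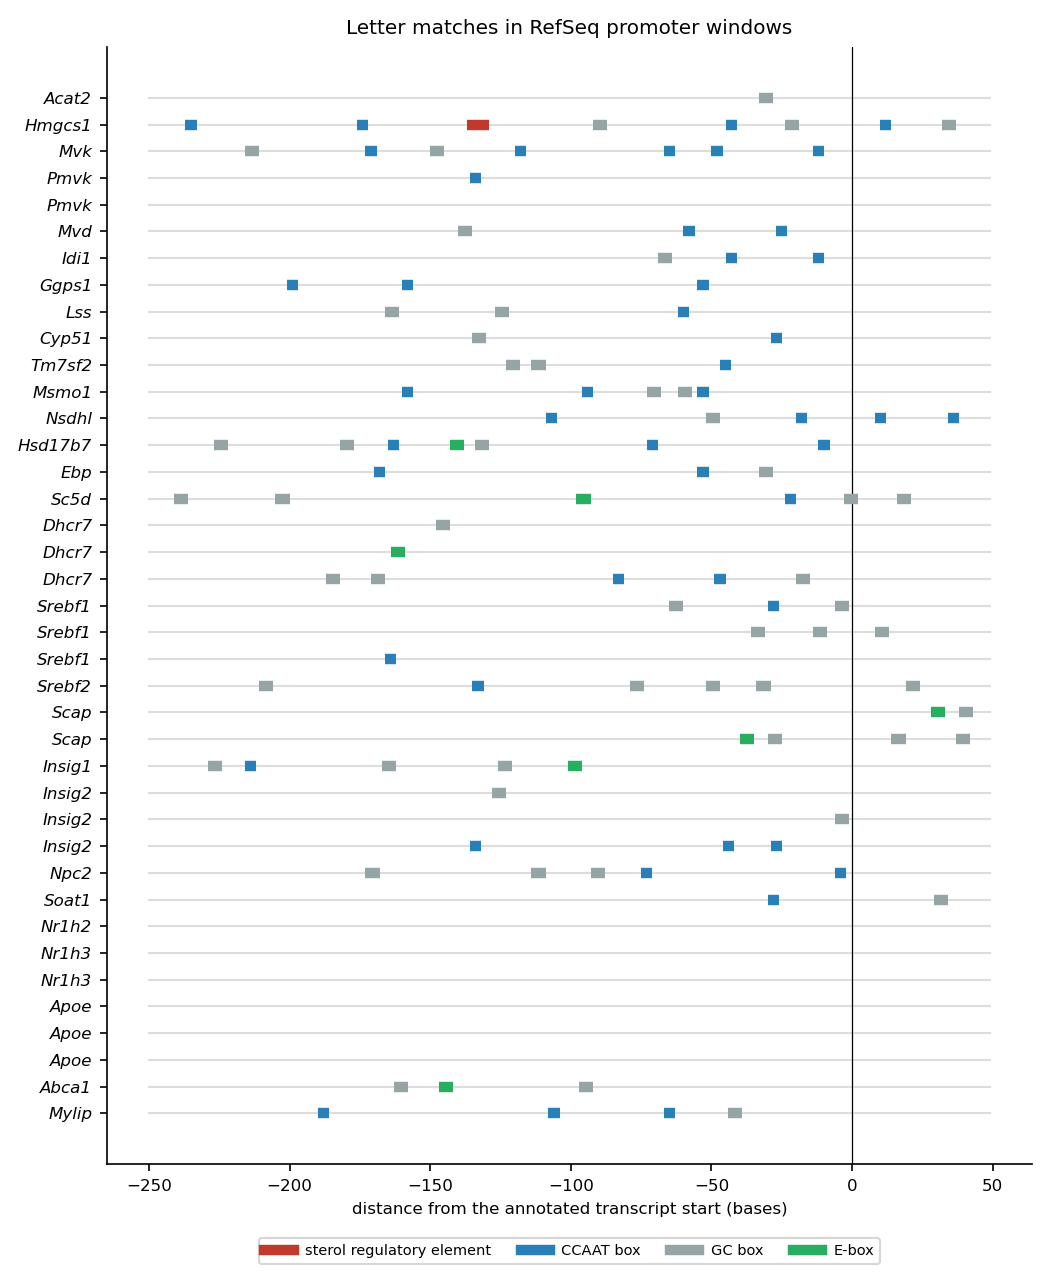
Matches to 4 motifs in the RefSeq promoter windows of 28 cholesterol genes, with 1 line for each of 39 windows and the distance from the annotated transcript start in bases on the horizontal axis. CCAAT boxes (blue) lie in 16 of the 17 SREBP2-driven genes, and the sterol regulatory element (red) lies in Hmgcs1 alone.

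The deletion and the cell type were checked against their markers before the cholesterol genes were read. Piezo1 was at 61.0 and 56.2 CPM in the knockouts, against 430 and 384 CPM in the controls (log2 fold change −2.79, SE 0.10, limma adjusted p = 8.23e-05). It shares 24.6% of its exon bases with Ctu2 on the opposite strand, so some reads may be assigned to, or lost with, that gene. Recovered read totals were 14122118 to 18897927 per library. All 14 macrophage and osteoclast markers were detected in all libraries, with Ctsk, the collagen-degrading cathepsin, at 23577 and 26656 CPM in the knockouts and 23060 and 23825 CPM in the controls. The share of mitochondrial genes was 1.38% and 2.74% in the knockouts, against 3.13% and 2.27% in the controls. Markers of stromal, fibroblast and osteoblast cells were also present. Their summed level over 19 tested markers was 1726 and 1548 CPM in the knockouts, against 2358 and 2900 CPM in the controls. The median log2 fold change of these markers was −0.50. Both knockouts lay below both controls in 12 of 19, against 15.4% of all genes, and above both in 0, against 16.5%. The fibrillin gene Fbn1 alone fell in limma. None of those 19 was at 0. Of the defining lymphocyte markers, 9 of 10 had no row in the table and Cd4 lay at 0.92 to 1.69 CPM. In bulk RNA, fewer cells of a type and less RNA per cell cannot be told apart.

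Levels of the cholesterol genes, divided by the length of their annotated exons, ranged from 0.58 to 532 CPM per kb. Apoe was the highest at 532 CPM per kb as a mean over the 4 libraries, followed by Npc2 at 314 CPM per kb, which in every library lay above all other members except Apoe. A wide gap followed. Hmgcs1 came next at 30.9 CPM per kb, then Insig1 at 28.0, Npc1 at 23.4, Nr1h2 at 21.9, Msmo1 at 20.9, Ebp at 19.9, Srebf2 at 19.6 and Soat1 at 19.4 CPM per kb. The ranges over the libraries overlapped for each neighbouring pair from Hmgcs1 to Soat1. Differences between neighbours within a library were not tested, and Insig1 lay above Npc1 in every library. The lowest Hmgcs1 library, at 27.5 CPM per kb, lay above every library of the genes from Npc1 to Soat1. The lowest were Hsd17b7 at 1.96, Acat2 at 1.28 and Tm7sf2 at 0.58 CPM per kb. Acat2 rested on 71 and 59 reads in the knockouts and 31 and 45 in the controls, and Tm7sf2 on 39 and 64 reads in the knockouts and 40 and 23 in the controls. The LXR beta gene Nr1h2 was far above the LXR alpha gene Nr1h3, which lay at 2.46 CPM per kb. The length is the union of all exons annotated in GENCODE M21, which understates the level of a gene whose cells use a short transcript.

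**Figure D2:**
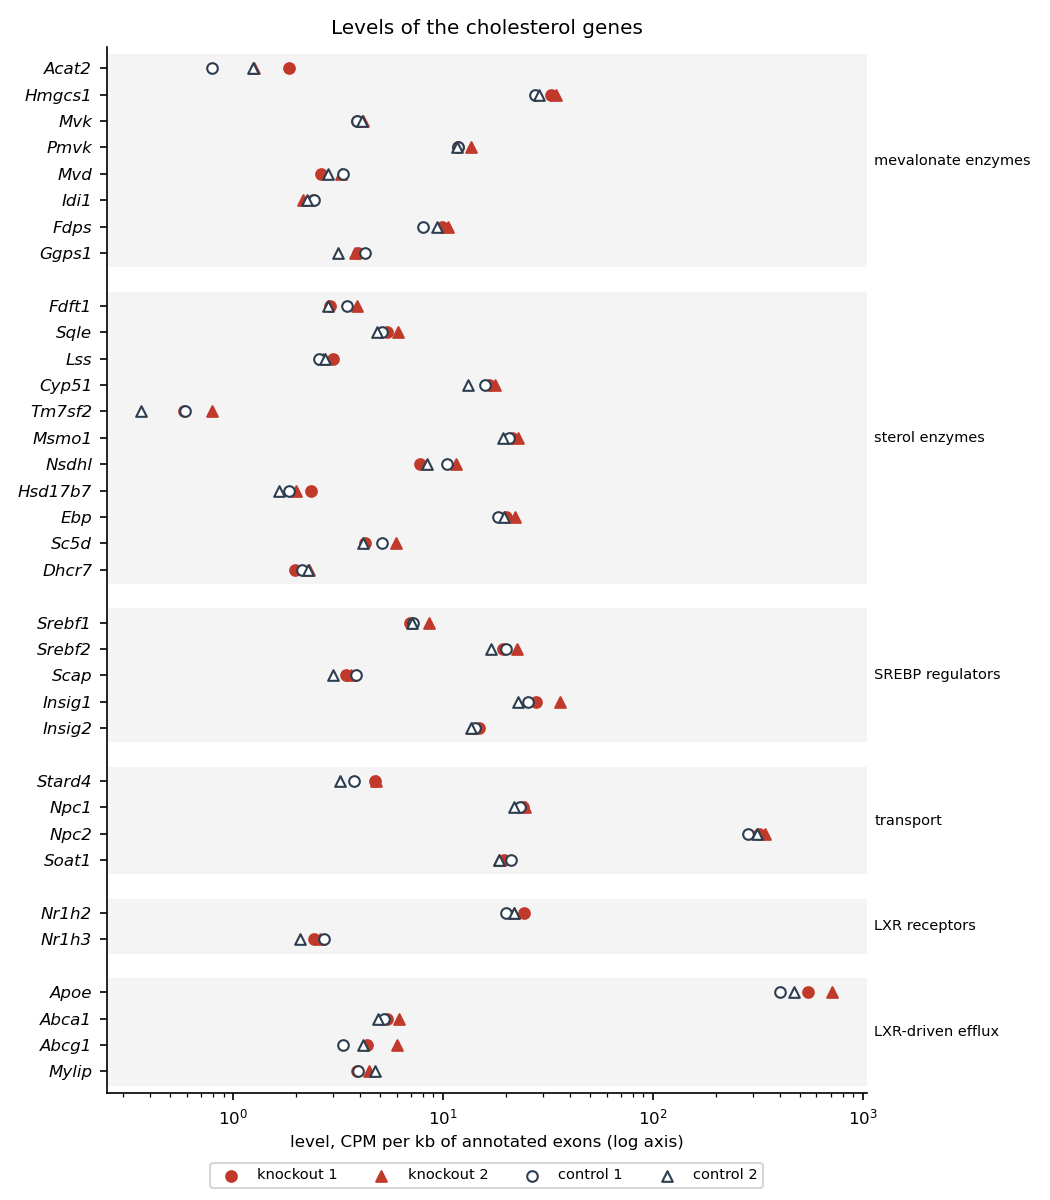
Level of each of the 34 genes in each library, as CPM per kb of annotated exons on a log axis, with the knockouts as filled and the controls as open symbols. Apoe and Npc2 stand above 200 CPM per kb, and most enzymes lie between 1 and 40 CPM per kb.

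Knockout and control cells were compared gene by gene to ask whether loss of Piezo1 moved either programme. No member passed. Of 34 tested with limma on log2(CPM + 0.5), 0 had a Benjamini-Hochberg adjusted p under 0.05 over all 11781 genes, against 0.161% of all genes (0.0424% higher in the knockouts and 0.119% lower), and 5 had an unadjusted p under 0.05, against 4.9% of all genes. edgeR, run on the recovered reads, also called 0 members, with 5 at an unadjusted p under 0.05. DESeq2 called 1, Apoe, against 0.535% of all genes. The 5 members below 0.05 unadjusted in limma were Hmgcs1, Insig1, Stard4, Apoe and Abcg1, each higher in the knockouts, where 1.35% of all genes were higher at that threshold and 3.55% lower. The adjusted p of the other 29 was 0.99975.

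Although no gene passed, the differences leaned one way. The log2 fold change was positive in 29 of 34 members, against 50.5% of all genes, and its median was 0.13, against 0.00 over all genes tested. Both knockouts lay above both controls in 16 of 34 members, against 16.5% of all genes, and both lay below in 0 of 34, against 15.4% (31.9% in either direction). The members are no independent votes: they are read from the same 4 libraries and many share regulators. The libraries of a genotype were not alike. Relative to the control mean, the median of the 34 was 0.09 in knockout 1 and 0.22 in knockout 2, against 0.05 in control 1 and −0.05 in control 2. Knockout 2 was the highest of the 4 for 22 of 34 members, against 26.8% of all genes, whereas knockout 1 was the highest for 5, against 25.9%. Knockout 2 lay above knockout 1 in 26 of 34, against 50.1% of all genes. Control 2 was the lowest for 18 of 34, against 23.4% of all genes. Without knockout 2, or without control 2, 25 of 34 members had a positive log2 fold change, and without knockout 1, or without control 1, 31 did. The medians of the 14 macrophage and osteoclast markers and of all 34 members were both 0.13, and 12 of those 14 markers were positive. Knockout 2 was the highest of the 4 for 11 of those 14 markers and lay above knockout 1 in 12. Relative to the control mean, the markers' median was 0.00 in knockout 1 and 0.24 in knockout 2, against 0.09 in control 1 and −0.09 in control 2. Both knockouts lay above both controls in 2 of the 14 markers. The part of cell identity or cell mixture in the cholesterol genes was not tested.

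**Figure D3:**
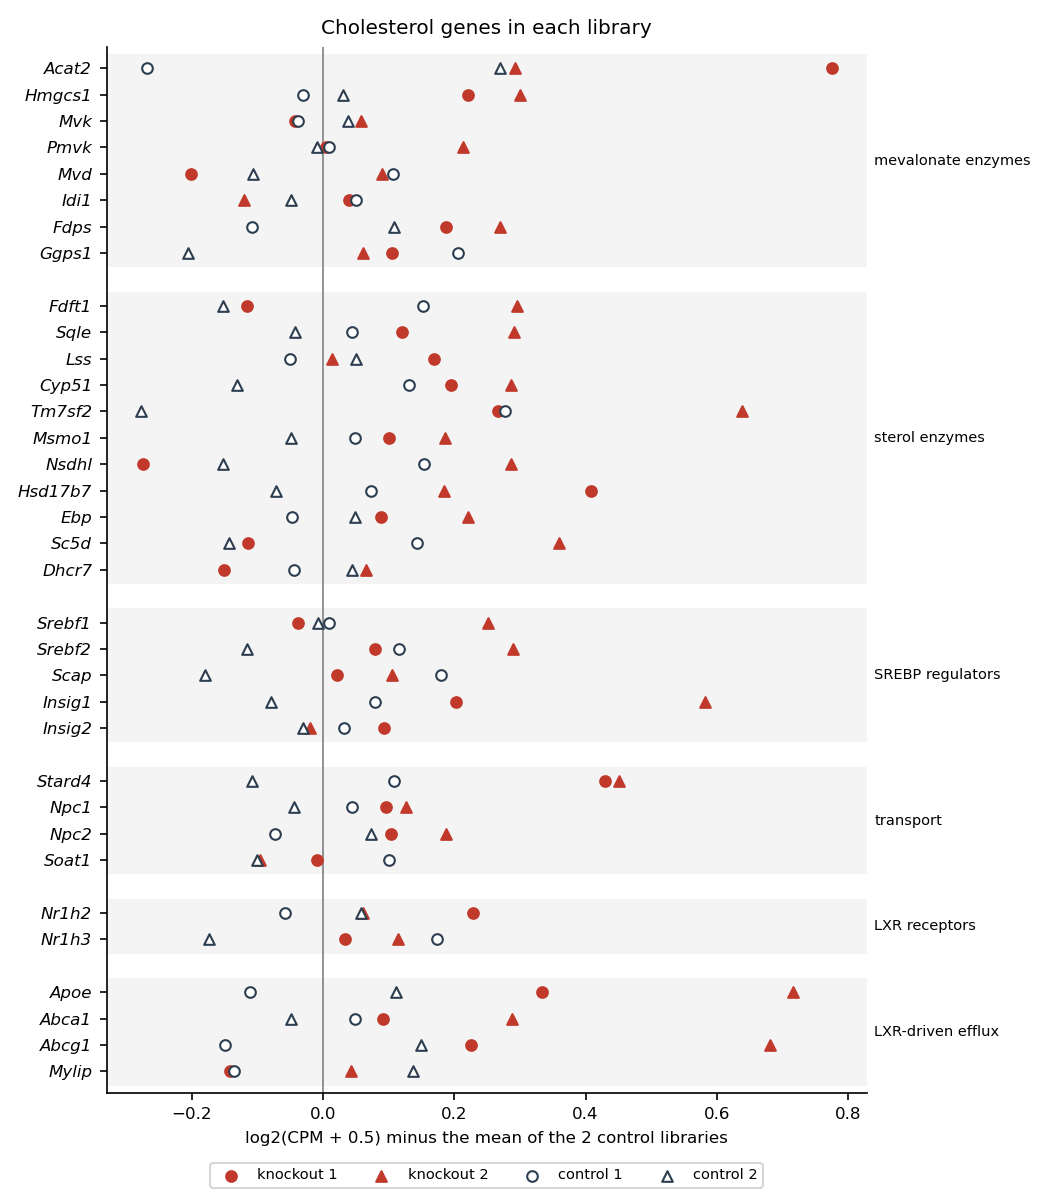
Each member's log2(CPM + 0.5) in each library, minus the mean of the 2 controls, with knockouts as filled red symbols and controls as open symbols. Both filled symbols lie to the right of both open ones for 16 of the 34 genes, and the filled triangle of knockout 2 is the rightmost symbol for 22.

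Among the 8 mevalonate and isoprenoid enzymes, 0 passed, 6 had a positive and 2 a negative log2 fold change, and the median was 0.10. Hmgcs1, which joins acetyl-CoA and acetoacetyl-CoA to make HMG-CoA, was at 150 and 159 CPM in the knockouts and at 126 and 132 CPM in the controls. The groups did not overlap, and both knockouts stood clear of the controls by more than either pair's own spread. Hmgcs1 thus had a log2 fold change of 0.26 (SE 0.09; the 95% confidence interval, as in all that follow, ran from 0.05 to 0.47; limma adjusted p = 0.88). Fdps, which makes farnesyl pyrophosphate, was at 41.7 and 44.2 CPM in the knockouts and at 33.9 and 39.5 CPM in the controls. The groups again did not overlap, but control 2 came close to knockout 1, and the interval of the log2 fold change ran from −0.04 to 0.50. Acat2, the cytosolic thiolase at the head of the pathway, is named here after its values were seen because its log2 fold change of 0.53 was the largest of the 34. It was at 4.69 and 3.21 CPM in the knockouts and at 2.01 and 3.15 CPM in the controls. The interval of its log2 fold change was wide, −0.12 to 1.19, and its reads were few. The 95% Poisson interval of knockout 1 was 3.66 to 5.91 CPM, counting error alone. Mvk, Pmvk, Mvd and Idi1, which carry mevalonate to the isoprene units, and Ggps1, which makes geranylgeranyl pyrophosphate for protein prenylation, had overlapping groups and log2 fold changes from −0.06 (Mvd) to 0.11 (Pmvk).

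Of the 11 enzymes that lead from farnesyl pyrophosphate to cholesterol, 0 passed, 10 had a positive and 1 a negative log2 fold change, and the median was 0.14. Cyp51, the lanosterol demethylase, was at 73.2 and 78.1 CPM in the knockouts and at 70.0 and 58.3 CPM in the controls. Sqle, which makes the epoxide of squalene, was at 30.1 and 33.9 CPM in the knockouts and at 28.5 and 26.8 CPM in the controls. Hsd17b7, a ketosteroid reductase, was at 12.0 and 10.2 CPM in the knockouts and at 9.42 and 8.47 CPM in the controls. In all of these the groups did not overlap but the nearest libraries lay close together. The log2 fold changes were 0.24 for Cyp51 (interval −0.03 to 0.51), 0.21 for Sqle (−0.07 to 0.48) and 0.30 for Hsd17b7 (−0.09 to 0.68). Dhcr7, which reduces 7-dehydrocholesterol in the last step, was at 11.5 and 13.4 CPM in the knockouts and at 12.4 and 13.2 CPM in the controls. Here the controls lay inside the range of the knockouts (log2 fold change −0.04, interval −0.40 to 0.31). Msmo1 and Ebp, which encode a methyl oxidase and a sterol isomerase, also had both knockouts above both controls, with log2 fold changes of 0.14 and 0.15. Fdft1 (squalene synthase), Lss (lanosterol synthase), Tm7sf2, Nsdhl and Sc5d had overlapping groups, with log2 fold changes from 0.01 (Nsdhl) to 0.45 (Tm7sf2). Within the knockouts Nsdhl and Sc5d were far apart, at 22.0 and 32.7 CPM for Nsdhl and 20.7 and 28.97 CPM for Sc5d.

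Of the 5 regulators, 0 passed and all 5 had a positive log2 fold change, with a median of 0.11. Insig1, the endoplasmic reticulum protein that holds SCAP back and is itself an SREBP target, was at 85.6 and 111 CPM in the knockouts and at 78.5 and 70.3 CPM in the controls. Both knockouts were above both controls, and knockout 2 was far above the rest. The log2 fold change was 0.39 (SE 0.14, interval 0.07 to 0.71, limma adjusted p = 0.91), 0.20 without knockout 2 and 0.58 without knockout 1. Insig2, its paralog, which is less dependent on SREBP, was at 51.5 and 47.6 CPM in the knockouts and at 49.4 and 47.2 CPM in the controls. These groups overlapped, and the interval of the log2 fold change was −0.20 to 0.27. Whether the paralogs differed from each other was not tested. Srebf2, which encodes SREBP-2, was at 139 and 161 CPM in the knockouts and at 143 and 121 CPM in the controls. Srebf1, whose products favour fatty acid synthesis and which is itself an LXR target, was at 39.3 and 48.1 CPM in the knockouts and at 40.6 and 40.1 CPM in the controls. In both genes knockout 1 lay below at least 1 control and knockout 2 above all other libraries. The log2 fold changes were 0.18 for Srebf2 (interval −0.09 to 0.46) and 0.11 for Srebf1 (−0.18 to 0.40), and 0.06 for Scap, the escort protein.

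Of the 4 genes of sterol transport and storage, 0 passed and 3 had a positive log2 fold change. Stard4, a cytosolic sterol carrier and SREBP target, was at 26.3 and 26.7 CPM in the knockouts and at 20.98 and 17.99 CPM in the controls. The knockouts were nearly equal and clear of both controls. Its log2 fold change of 0.44 (SE 0.13, interval 0.14 to 0.74) had an unadjusted p of 0.010 and an adjusted p of 0.681 in limma, the same as Apoe to these digits. In edgeR and DESeq2, Apoe had the smallest adjusted p of the 34. Npc1, the late endosomal membrane protein that releases cholesterol from lysosomes, was at 272 and 278 CPM in the knockouts and at 262 and 247 CPM in the controls. Npc2, its soluble partner in the lysosome lumen, was at 1743 and 1848 CPM in the knockouts and at 1542 and 1708 CPM in the controls. Neither pair of groups overlapped, and the differences were small: the log2 fold changes were 0.11 for Npc1 (interval −0.10 to 0.32) and 0.15 for Npc2 (−0.14 to 0.43). Soat1, which esterifies cholesterol for storage in droplets, was at 192 and 180 CPM in the knockouts and at 207 and 180 CPM in the controls. Those groups overlapped (log2 fold change −0.05, interval −0.29 to 0.18).

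On the efflux side, 0 of the 2 receptors and 0 of their 4 targets passed in limma. Apoe, the apolipoprotein that takes up exported lipid, was at 1169 and 1524 CPM in the knockouts and at 858 and 1002 CPM in the controls. Both knockouts were above both controls, and knockout 2 was well above knockout 1. The log2 fold change was 0.53 (SE 0.15, interval 0.17 to 0.88), with adjusted p of 0.681 in limma, 0.658 in edgeR and 0.0416 in DESeq2. It was 0.33 without knockout 2 and 0.72 without knockout 1. Abcg1, which exports cholesterol to high-density lipoprotein, was at 31.8 and 43.8 CPM in the knockouts and at 24.4 and 30.2 CPM in the controls. The groups did not overlap, but knockout 1 lay just above control 2 (log2 fold change 0.45, interval 0.04 to 0.86, limma adjusted p = 0.983). Abca1, which loads lipid-poor apolipoprotein, was at 55.9 and 64.1 CPM in the knockouts and at 54.2 and 50.7 CPM in the controls, with no overlap and a log2 fold change of 0.19 (interval −0.07 to 0.44). Mylip, a ubiquitin ligase that marks lipoprotein receptors for degradation, was at 12.6 and 14.4 CPM in the knockouts and at 12.7 and 15.4 CPM in the controls. Its groups overlapped, and its log2 fold change was −0.05 (interval −0.42 to 0.32), a sign that turned without knockout 1 or without control 2. The receptor genes differed little. Nr1h2 was at 81.8 and 72.7 CPM in the knockouts and at 67.0 and 72.6 CPM in the controls (log2 fold change 0.14), and Nr1h3 was at 6.14 and 6.52 CPM in the knockouts and at 6.82 and 5.25 CPM in the controls (0.07).

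**Figure D4:**
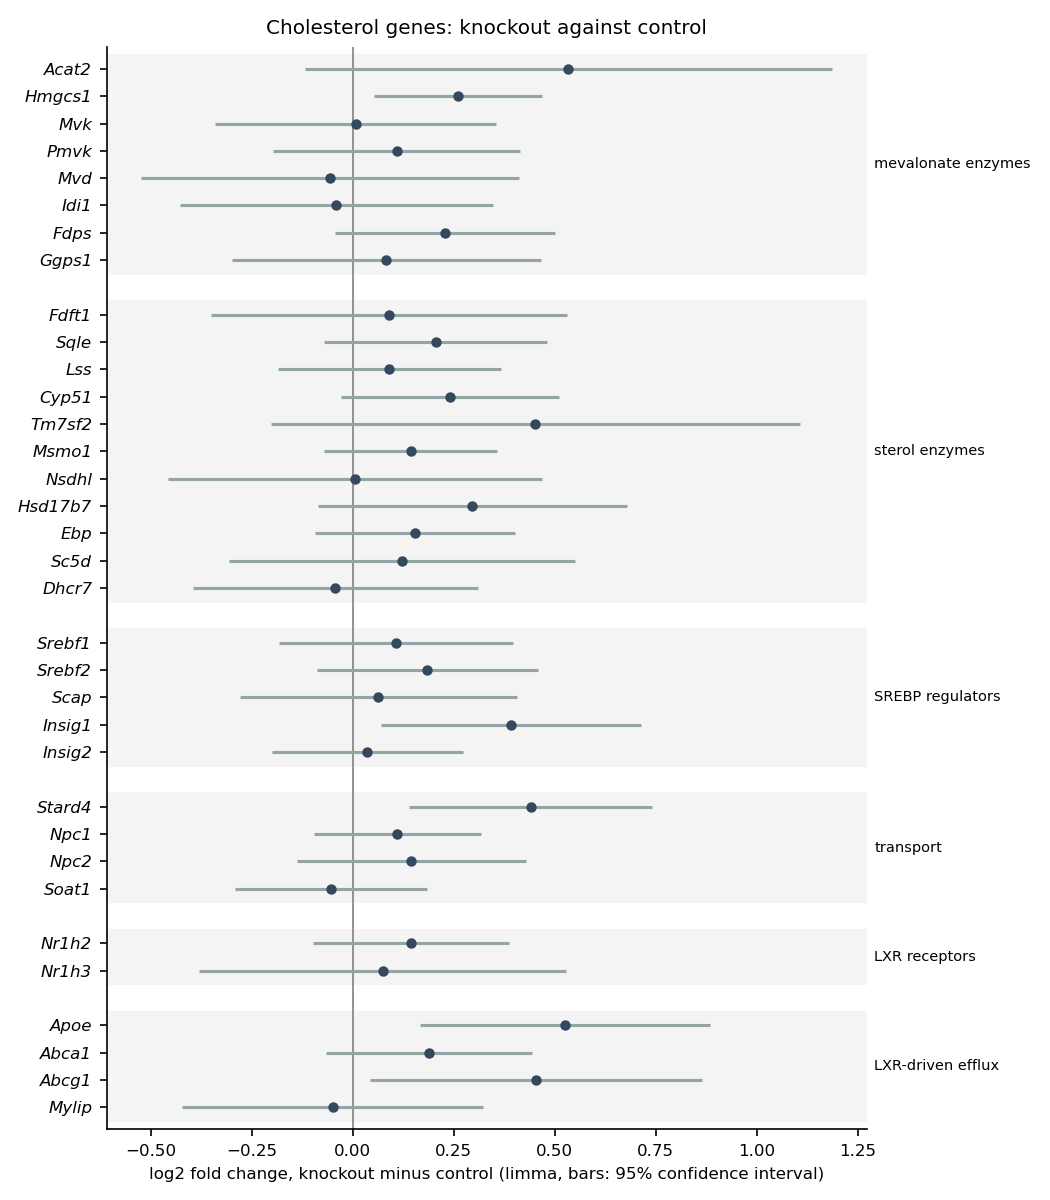
Log2 fold change of each member, knockout minus control, with its 95% confidence interval from limma, grouped by role. The intervals of Hmgcs1, Insig1, Stard4, Apoe and Abcg1 lie above 0, and those of the other 29 genes include 0.

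The SREBP2-driven and LXR-driven members were then set side by side in each library. The SREBP2-driven list held 21 genes (18 of the enzymes, with Srebf2, Insig1 and Stard4), and the LXR-driven list held Abca1, Abcg1, Apoe and Mylip. Relative to the control mean, the median of the SREBP2-driven genes was 0.10 in knockout 1 and 0.29 in knockout 2, against 0.05 in control 1 and −0.05 in control 2. The median of the LXR-driven genes was 0.16 in knockout 1 and 0.48 in knockout 2, against −0.12 in control 1 and 0.12 in control 2. Both list medians were therefore highest in knockout 2 and next highest in knockout 1. Knockout 1 lay close to the nearer control, at 0.10 against 0.05 for the SREBP2-driven and 0.16 against 0.12 for the LXR-driven genes. The SD between replicate libraries was 0.10 for the SREBP2-driven and 0.20 for the LXR-driven median. Whether the lists were opposed across genotypes was not tested. Between the controls the order differed: 14 of 21 SREBP2-driven genes were higher in control 1 than in control 2, and 1 of 4 LXR-driven genes (Abca1) was. The median log2 fold changes were 0.15 and 0.32. Their difference, −0.17 as SREBP2-driven minus LXR-driven, was smaller than the SD of that difference between replicate libraries, 0.19, so it lay within the replicate spread. Both knockouts were above both controls in 10 of 21 SREBP2-driven and 3 of 4 LXR-driven genes, against 16.5% of all genes. Leaving out knockout 1 left the knockout 2 medians of 0.29 and 0.48, and leaving out knockout 2 left the knockout 1 medians of 0.10 and 0.16. These equal the library medians above by construction and are no separate check. The LXR-driven median rests on 4 genes, and with Srebf1 and Nr1h3 added it was 0.15.

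**Figure D5:**
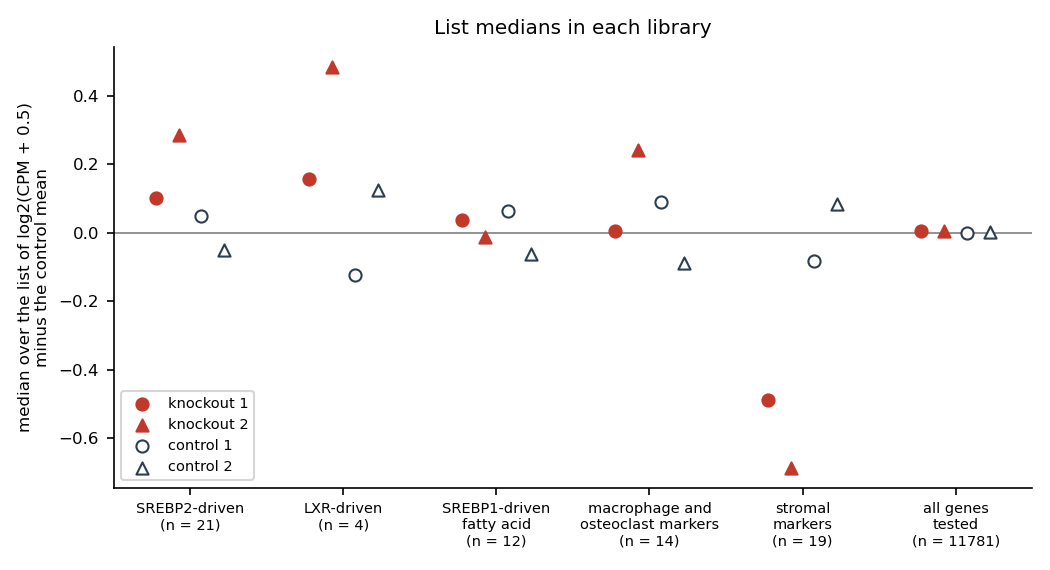
Median over each list of log2(CPM + 0.5) minus the control mean, in each library, with knockouts as filled and controls as open symbols and the number of genes under each name. The SREBP2-driven and LXR-driven medians are highest in knockout 2 (0.29 and 0.48), while the stromal markers are lower in both knockouts (−0.49 and −0.69).

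Neighbouring parts of lipid metabolism were read in the same libraries, and their difference from the cholesterol genes was not tested. Of 12 tested genes of SREBP1-driven fatty acid synthesis, 0 rose and 0 fell in limma, 6 were positive and 6 negative, and the median log2 fold change was 0.00. The desaturase Scd2 was at 64.0 and 75.2 CPM in the knockouts and at 48.0 and 61.0 CPM in the controls (log2 fold change 0.36, adjusted p = 0.985), and Scd1 was at 11.4 and 11.9 CPM in the knockouts and at 10.5 and 9.52 CPM in the controls (0.21). Of 11 genes of SREBP processing and other sterol-responsive genes, 0 passed, 6 were positive and 5 negative, and the median was 0.05. Lpin1, a phosphatidate phosphatase, was at 20.9 and 27.9 CPM in the knockouts and at 19.0 and 17.0 CPM in the controls (0.42, adjusted p = 0.983), and Cyb5r3, a cytochrome b5 reductase, was at 422 and 536 CPM in the knockouts and at 549 and 534 CPM in the controls (−0.19). Of 8 tested receptors and enzymes of lipoprotein uptake, 0 passed, 3 were positive and 5 negative, and the median was −0.07. The scavenging receptor Lrp1 was at 398 and 262 CPM in the knockouts and at 476 and 408 CPM in the controls (−0.45, adjusted p = 0.99975), and the lysosomal acid lipase gene Lipa was at 319.5 and 191 CPM in the knockouts and at 280.5 and 264 CPM in the controls (−0.14). In both genes knockout 2 was the lowest library. Of 14 genes of sterol transfer, esterification and hydrolysis, 0 passed, 9 were positive and 5 negative, and the median was 0.06. Gramd1a, which moves sterol from the plasma membrane to the endoplasmic reticulum, was at 33.5 and 36.5 CPM in the knockouts and at 43.4 and 43.0 CPM in the controls (−0.30, adjusted p = 0.906). Nceh1, a cholesteryl ester hydrolase, was at 276 and 261 CPM in the knockouts and at 235 and 231 CPM in the controls (0.21, adjusted p = 0.99975). Of 11 other LXR targets and partners, 0 passed, 0 had an unadjusted p under 0.05, 7 were positive and 4 negative, and the median was 0.04. Arl4c was at 18.3 and 13.5 CPM in the knockouts and at 18.3 and 17.2 CPM in the controls (−0.17). Smpdl3a was at 125 and 159 CPM in the knockouts and at 139 and 126 CPM in the controls (0.09). The groups overlapped in both. Of the oxysterol enzymes, Cyp27a1 was at 1.52 and 2.50 CPM in the knockouts and at 2.01 and 2.24 CPM in the controls (−0.09), and Hsd3b7 was at 110.5 and 119 CPM in the knockouts and at 107 and 118 CPM in the controls (0.03).

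Precision set what could be seen. The highest upper confidence limit among the 34 log2 fold changes was 1.19, for Acat2, and the lowest lower limit was −0.52, for Mvd. For better measured genes the limits were tighter, as for Msmo1 (−0.07 to 0.36) and Insig2. Each genotype had 2 libraries, and an exact permutation test of a gene cannot go below p = 0.333 in this design. Of the 34 genes, 6 share exon bases with another gene in the table, so some of their reads may be assigned to, or lost with, the partner. The largest such share was 18.3% of the exons of Fdft1, with Ctsb on the opposite strand. Counting partners without a row, 12 of the 34 share exon bases with another annotated gene. The largest share was then 26.7% of the exons of Fdps, with Gm43738 on the same strand.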

How the data were processed

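Poly(A) RNA of 2 knockout and 2 control cultures was sequenced as paired-end reads. STAR, edgeR and featureCounts (Subread) and the build mm10 (GRCm38) are listed, without versions, per the submitters' processing notes. The annotation, strand setting and low-count filter were not given in the sources used here. The authors deposited a normalised signal per gene and library. Every value was a whole multiple of its column's smallest positive value (100% within 0.001 reads), which gave back whole reads, and CPM recomputed from them with TMM scaling matched the deposited signal to within 4.9e-11. 1 read was worth 0.0544 to 0.0700 CPM.

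Genes that reached 1 CPM in 2 or more libraries (11781) were tested 2-sided with limma and an intensity trend on log2(CPM + 0.5), with Benjamini-Hochberg adjustment over all of them and 7.52 total degrees of freedom. Fold changes on this scale understate those of low genes. The limma p-values set each difference against the spread between these libraries. That spread was partly borrowed across genes, as 5.52 of the 7.52 degrees of freedom. The adjusted p-values depend in addition on the p-values of all other genes tested. The libraries of every pair differed beyond sampling noise in a chi-square test of reads. The chi-square per degree of freedom was 22.5 between the knockouts and 11.2 between the controls. Between a knockout and a control it ran from 12.0 to 21.1, below the value between the knockouts. The members and lists were chosen with earlier results of these data known, and no p is given over a list. Values in every library are printed for members with an unadjusted p under 0.05, the 2 with the smallest p of each role, 15 landmark members and the 2 with the smallest p of each neighbouring list. Genes outside that rule are given by range or were named after their values were seen. Exon lengths and positions came from GENCODE M21, and promoters from RefSeq. The steps were also run on simulated reads with known fold changes, and how many were recovered is not given here. The pseudocount, the filter, the scaling, the variance model and the make-up of the lists were varied. A replicate block was added, libraries were left out in turn, and edgeR and DESeq2 were run. The other marker lists fixed for this comparison (neutrophil, endothelial, adipocyte and erythroid) had 6, 2, 1 and 1 tested genes, with median log2 fold changes of −0.23, −0.06, 0.06 and 0.65. Python 3.11.15 and R 4.3.3 were used, with edgeR 4.0.16, limma 3.58.1 and DESeq2 1.42.0.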

Additional observations from a re-analysis of the deposited data

How the results depend on the processing

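Over all genes, limma called 19, and 4 without an intensity trend, 89 with a replicate block, 63 with DESeq2 and 7 to 76 with each library left out. Same-numbered libraries did not deviate together across genes (r = −0.0016, a single value, since with 2 libraries per genotype both numbers give the same r), so nothing here shows that the numbers pair the samples. Of the members, 0 were called in limma under every alternative, block included, and 1, Apoe, with DESeq2 (log2 fold change 0.53). Members with a positive fold change numbered 25 to 31 with each library left out, 27 under total-count scaling and 27 under the stricter filter, which left out Acat2 and Tm7sf2. That count was added after seeing the data. Total-count scaling shifted the median of all genes by −0.02 and gave Mvk −0.0153 and Nsdhl −0.0177. With each library left out, the SREBP2-driven median ranged from 0.10 to 0.29, the LXR-driven median from 0.16 to 0.48 and their difference from −0.26 to −0.04. Of 34 members, 14 changed sign in at least 1 alternative, all with groups that overlap. Their ranges with each library left out were −0.0426 to 0.0578 for Mvk, −0.20 to 0.0893 for Mvd, −0.12 to 0.0398 for Idi1, −0.12 to 0.29 for Ggps1, −0.12 to 0.30 for Fdft1, −0.27 to 0.29 for Nsdhl, −0.11 to 0.36 for Sc5d, −0.15 to 0.0653 for Dhcr7, −0.0387 to 0.25 for Srebf1, −0.12 to 0.24 for Scap, −0.0200 to 0.0930 for Insig2, −0.15 to 0.0476 for Soat1, −0.10 to 0.25 for Nr1h3 and −0.19 to 0.0864 for Mylip. The cause of these shifts was not tested. When a library is left out, a gene whose groups do not overlap cannot change sign. The link between sign changes and overlap was therefore fixed in advance for those settings. Acat2 and Tm7sf2 had the fewest reads of the members, with as few as 23 in a library.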
